A study of Mus musculus with 11 samples.

Results

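The integrin, laminin and collagen genes were compared between keratinocytes (KCs) and dendritic epidermal T cells (DETCs), and then between mice with and without Langerhans cells (LCs), the dendritic cells of the epidermis. Members were chosen by symbol, as protein-coding mouse genes of the series Itga, Itgb, Lama, Lamb, Lamc and Col. The rule reads no measured values, but the members were chosen with earlier results of these data known. Integrin-binding proteins with similar symbols were left out, and not every integrin beta chain of the mouse is among the members. The rule found 82 of the 52550 genes in the table: 44 collagen genes, 18 integrin alpha chains, 7 integrin beta chains, 11 laminin chains, and Itgbl1 and Col4a3bp, which match by spelling but encode no chain of these families and are kept apart. Of these, 79 had at least 1 read in some library, and 56 passed the filter on low values and could be tested (25 collagens, 15 alpha chains, 6 beta chains, 9 laminin chains and Col4a3bp). The 26 others reached at most 44 reads in a single library, in Itga11, and include the leukocyte chain Itgam, the mesenchymal laminin chain Lama2 and the dermal collagen Col3a1.

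RNA was sequenced from cells sorted from the flank epidermis of female littermates aged 8 weeks. WT mice were compared with huLangerin-DTA mice, written LC-/- here and DTA in the sample labels, in which the human langerin promoter drives diphtheria toxin subunit A, so that LCs are missing from birth. KCs were sorted as live cells negative for MHC-II, CD45, langerin and c-kit, and DETCs by the same gate but positive for CD45. The libraries are named here after 6 numbers in the labels, W1, W2 and W3 for WT and L1, L2 and L3 for LC-/-. Each number has 1 KC library and, except for L1, 1 DETC library, and the labels do not state that KC and DETC libraries of one number came from the same mouse. This made 11 libraries in 4 groups.

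Integrins are pairs of an alpha and a beta chain that span the plasma membrane and bind matrix proteins or other cells. In basal keratinocytes the pair of Itga6 and Itgb4 forms hemidesmosomes together with type XVII collagen (Col17a1), and it binds a laminin of the basement membrane that holds the Lama3 and Lamb3 chains, from which anchoring fibrils of type VII collagen (Col7a1) reach into the dermis. T cells use other pairs: Itgal with Itgb2 (LFA-1) binds ICAM adhesion molecules, and Itgae with Itgb7 (CD103 with beta7) binds E-cadherin, the product of Cdh1, on epithelial cells.

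Promoters are printed for 5 members. Itgb7 and Col27a1 were higher in DETCs, and Col17a1 was the most abundant member of KCs per length. Itga2 and Itga4 differed between genotypes in DETCs in the main test. RefSeq promoters were matched for 58 of the 82 members, and those of Itgae, Itgal, Itga6 and Lama3 were not among them. Each sequence below is the 250 bases before the RefSeq start on GRCm38.p6, written 5′ to 3′ on the strand of the gene. Capitals mark 5 motifs searched on both strands. The RUNX motif was searched as TGTGGT and is held by 14% of the 32851 RefSeq promoters in windows of the same length. The ETS motif was searched as CCGGAA and is held by 12% of them, and the AP-1 motif, TGANTCA, by 6.75%. For the GC box the letters were GGGCGG, present in 32.7% of promoters, and for the TATA box TATAAA, present in 12.4%. None of the marked matches overlap.
Itgb7: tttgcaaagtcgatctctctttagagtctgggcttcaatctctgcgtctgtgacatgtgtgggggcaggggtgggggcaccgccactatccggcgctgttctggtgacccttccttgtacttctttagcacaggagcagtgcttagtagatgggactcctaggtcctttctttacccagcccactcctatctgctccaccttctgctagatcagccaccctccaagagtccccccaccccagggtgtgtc
Col27a1: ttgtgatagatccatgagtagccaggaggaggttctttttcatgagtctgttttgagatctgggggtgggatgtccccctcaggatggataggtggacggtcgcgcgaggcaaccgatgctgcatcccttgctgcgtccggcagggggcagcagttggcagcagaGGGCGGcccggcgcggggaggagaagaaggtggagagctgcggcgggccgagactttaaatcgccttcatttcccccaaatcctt
Col17a1: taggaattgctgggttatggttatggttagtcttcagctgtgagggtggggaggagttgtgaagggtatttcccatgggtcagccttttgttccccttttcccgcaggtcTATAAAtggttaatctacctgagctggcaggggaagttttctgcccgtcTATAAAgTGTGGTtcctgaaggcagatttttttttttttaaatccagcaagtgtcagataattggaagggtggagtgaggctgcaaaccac
Itga2: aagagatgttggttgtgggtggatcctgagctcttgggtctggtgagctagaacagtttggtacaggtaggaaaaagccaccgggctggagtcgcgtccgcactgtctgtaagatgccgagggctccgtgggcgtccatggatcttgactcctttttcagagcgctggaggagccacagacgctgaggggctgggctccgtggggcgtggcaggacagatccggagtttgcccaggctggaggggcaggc
Itga4: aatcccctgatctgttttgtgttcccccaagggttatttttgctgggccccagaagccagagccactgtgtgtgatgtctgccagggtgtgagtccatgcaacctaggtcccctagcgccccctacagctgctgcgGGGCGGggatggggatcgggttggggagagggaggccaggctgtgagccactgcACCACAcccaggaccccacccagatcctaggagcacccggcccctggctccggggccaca

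The Itgb7 window is chr15:102231936-102232185 on the minus strand and that of Itga2 is chr13:114932101-114932350 on the minus strand, and neither held any of these motifs. The Col27a1 window, chr4:63215162-63215411 on the plus strand, held a GC box beginning 85 bases before the start. The Col17a1 window, chr19:47692043-47692292 on the minus strand, held TATA boxes beginning 140 and 91 bases before the start and a RUNX motif 84 bases before it. The Itga4 window, chr2:79255176-79255425 on the plus strand, held a GC box beginning 114 bases before the start and a RUNX motif 60 bases before it. In the GENCODE annotation the Col27a1 window lies inside the gene, those of Col17a1 and Itgb7 overlap its first bases, and those of Itga2 and Itga4 end just outside it. A match describes letters in the window and not a bound site.

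Between 13491075 and 19750440 reads were counted on genes per library, and values are the deposited normalized counts, in which each library's reads were divided by its size factor. Cd207, the langerin gene of the missing cells, had normalized counts of 6.15, 26.9 and 15.6 in the KC libraries of W1, W2 and W3 and 0 in all 3 LC-/- KC libraries. In DETC libraries it had 21.8, 16.5 and 46.7 in W1, W2 and W3, 0 in L2 and 4.42 in L3. Of the 7 LC markers, which include Cd207, 3 were lower in LC-/- KCs and 4 in LC-/- DETCs, and Mfge8 passed in neither. Epcam, which keratinocytes express too, was higher, with 5995, 5799 and 6564 in WT and 9869, 9484 and 9970 in LC-/- KCs (0.68 ± 0.06, adjusted p = 0.0186), and it was also higher in LC-/- DETCs (0.72 ± 0.15, adjusted p = 0.0453). The 10 DETC markers summed to between 9.28 and 28.4 in KC libraries and between 137634 and 172046 in DETC libraries. The 12 keratinocyte markers, such as Krt5 and Krt14, were not absent from the CD45+ sort: they summed to between 576861 and 613521 in KC libraries and to between 97488 and 160498 in DETC libraries. The median marker in a DETC library stood at 15.0% (W1), 15.2% (W2), 17.7% (W3), 24.3% (L2) and 15.7% (L3) of its mean in KC libraries of the same genotype, with Cdh1 highest, at 42.3% to 61.2%. These percentages are given again beside the members they touch.

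KCs and DETCs differed in 49 of the 56 members tested, counting both directions, against 81.6% of all genes tested. Of 56 members, 36 were higher in KCs, against 37.9% of all 14419 genes tested, and 13 were higher in DETCs, against 43.6% of all genes (limma with Benjamini-Hochberg adjustment, threshold 0.05, both genotypes weighted equally). Values of the KC and DETC libraries did not overlap in 46 of the 56 members, and in 65.7% of all genes tested. The median difference, KC minus DETC on the scale log2(normalized count + 1), was 1.85 over the members and -0.07 over all genes. All laminin chains tested and all type IV collagens tested were higher in KCs, whereas all 8 tested chains of the leukocyte group (Itgal, Itgae, Itgb2, Itgb7, Itgax, Itgad, Itga4, Itga9) were higher in DETCs.

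The chain of the hemidesmosome integrin Itga6 had a lowest, median and highest normalized count of 20762, 23423 and 25763 in the 6 KC libraries. In DETC libraries it had 4248, 3182 and 4275 in W1, W2 and W3 and 6659 and 3780 in L2 and L3. Every KC library was above every DETC library, and the fitted difference was 2.41 ± 0.13 (log2, SE), a 5.31-fold higher level in KCs. Its partner Itgb4, which joins only Itga6, ran from 8621 to 9402 in KCs and from 1227 to 2025 in DETCs, a difference of 2.46 ± 0.09. Itga3, the alpha chain of the other main laminin receptor of the basal layer, was 4.31-fold higher in KCs (2.11 ± 0.11), and Itga7, a laminin receptor better known from muscle, was low in both, with at most 84.4 in a KC library and 20.7 in a DETC library. The 4 laminin-binding chains other than Itgb1 were thus all higher in KCs.

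Itgb1, the beta chain shared by the largest number of alpha chains, did not follow them. It had normalized counts of 6211, 6323 and 7565 in WT KCs and 10013, 7600 and 11130 in LC-/- KCs, and 6831, 7493, 7495, 7713 and 7652 in the 5 DETC libraries. The populations overlapped, and the difference was 0.09 ± 0.10 (log2, SE, adjusted p = 0.405). Within WT libraries alone it was -0.12 (adjusted p = 0.264) and within LC-/- libraries alone 0.30 (0.148), and without KC library L2 it came to 0.17 (0.0464), the single fit of 11 with 1 library left out that passed the threshold.

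Among collagen-binding alpha chains the populations differed in opposite directions. Itga2, which pairs with Itgb1 as a receptor for collagen, ran from 1542 to 3221 in KCs and from 385 to 894 in DETCs (3.96-fold higher in KCs, 1.99 ± 0.12). Itga1, the other collagen receptor and a marker of tissue-resident T cells, had 599, 924, 818, 562 and 1116 in the DETC libraries and between 35.6 and 65.7 in KCs. Itga1 was 16.4-fold higher in DETCs (-4.04 ± 0.19), the reverse of Itga2, with no overlap in either gene. Itga10 was near the filter in both populations, and it shares 33.5% of its exon bases on the same strand with another annotated gene, so its reads are uncertain.

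The chains that bind the RGD motif of fibronectin and vitronectin split as well. Itga5, the fibronectin receptor chain, was 2.06-fold higher in KCs (1.04 ± 0.10), with 312 to 586 in KCs and 172 to 238 in DETCs. Itgav, the alpha chain of the vitronectin receptors, was slightly higher in DETCs, at 3297, 3015, 3632, 4838 and 4079 against 2414 to 3662 in KCs (-0.40 ± 0.09, adjusted p = 9.38e-04), and the populations overlapped. Its partner Itgb3 was far higher in DETCs, with 350, 358, 373, 245 and 186 there and 2.20 to 5.09 in KCs (-5.94 ± 0.19). Itgb5, another partner of Itgav, had 593 to 1012 in KCs and 657 to 835 in DETCs, and its difference of 0.10 ± 0.11 missed the threshold (adjusted p = 0.402).

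The leukocyte chains Itgal, Itgae and Itgb7 gave the largest fitted differences among the members. Itgae, which encodes CD103, had normalized counts of 20638, 24677, 25673, 22108 and 26245 in the DETC libraries W1, W2, W3, L2 and L3, and between 0.864 and 5.25 in the KC libraries. With 16 reads in all 6 KC libraries against 121722 in the 5 DETC libraries, the depth-scaled ratio of DETC to KC was 9045 (95% exact interval 5569 to 15820, counting error only). Its partner Itgb7 ran from 10012 to 11987 in DETCs and from 3.05 to 7.42 in KCs.

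Itgal, the alpha chain of LFA-1, had 10728, 12631, 12616, 10819 and 13344 in the DETC libraries and 0 to 3.15 in KCs, a ratio of 14580 (interval 6248 to 44910). Itgb2, the beta chain of LFA-1, ran from 1963 to 3534 in DETCs, lowest in L2, and reached 2.10 in KCs (ratio 2627, interval 1275 to 6536). Itgax and Itgad, further partners of Itgb2, were present at lower levels: 385 to 515 and 58.6 to 77.8 in DETCs, with 3 reads and 1 read in all KC libraries. The ratios were 921 (interval 315 to 4469) for Itgax and 411 (interval 73.3 to 16290) for Itgad. Itga4, which pairs with Itgb1 or Itgb7, was 5.47-fold higher in DETCs (-2.45 ± 0.17), with 126 to 343 there and 23.4 to 41.5 in KCs. Itga9 was the lowest of the tested chains of the group, with 14.4 to 23.3 in DETCs. KC libraries held at most a few reads of CD103 and LFA-1, as they did of the DETC markers.

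**Figure D1:**
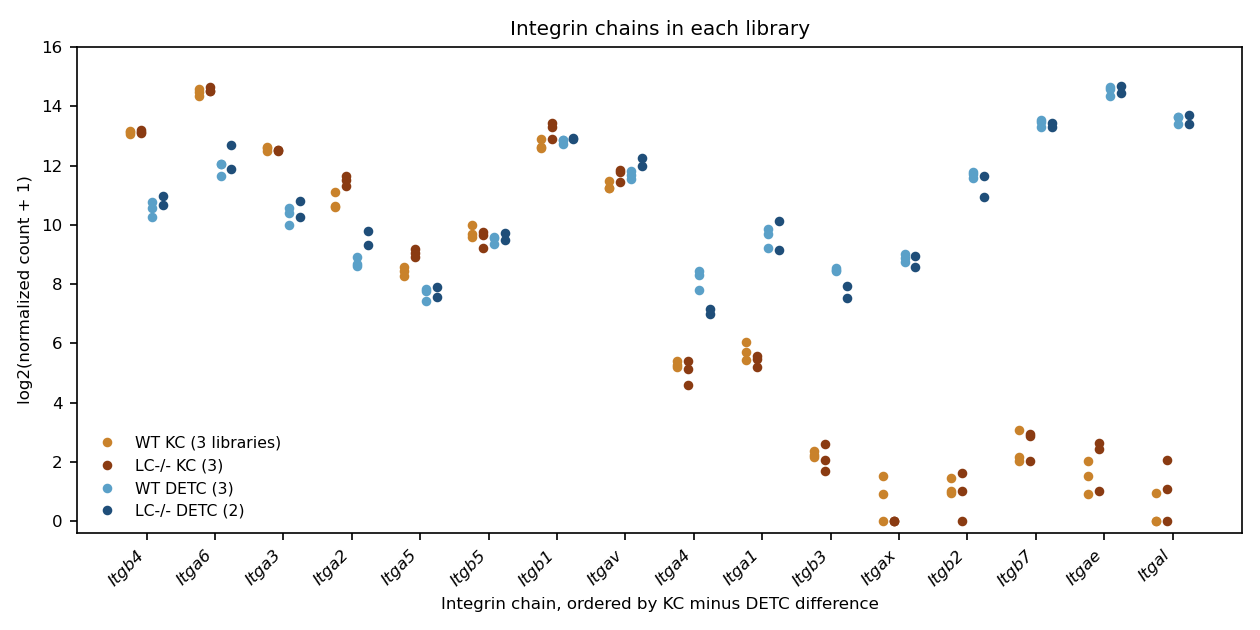
Each point is 1 library, placed by its log2(normalized count + 1) on the vertical axis, for the 16 integrin chains with a mean of at least 100 in KCs or DETCs, ordered from left to right by the KC minus DETC difference. Itgb4, Itga6, Itga3, Itga2 and Itga5 sit higher in KC libraries, Itgb5, Itgb1 and Itgav sit at like heights in both populations, and Itga4, Itga1, Itgb3, Itgax, Itgb2, Itgb7, Itgae and Itgal sit higher in DETC libraries.

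Levels of different genes were compared per kb of exon. In KCs the highest integrin levels were those of 4 chains: Itga6 stood at 2596 ± 184 normalized counts per kb (SD, n = 6 libraries), Itgb1 at 1995 ± 491, Itgb4 at 1278 ± 38.7 and Itga3 at 1045 ± 40.9. Itga6 and Itgb1 ranged more widely around their means than Itgb4 and Itga3, and the ranges of Itga6 and Itgb1 overlapped. In DETCs the order by level per kb was Itgae (5210 ± 525, n = 5), Itgb7 (3943 ± 296), Itgal (1831 ± 180), Itgb1 (1822 ± 86.3) and Itgb2 (993 ± 204). Itgal and Itgb1 lay closer together than their spread. Itgb1 was the single chain of these that ranked high in both populations.

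The hemidesmosome laminin chains Lama3 and Lamb3 were higher in KCs. Lama3 had a lowest, median and highest normalized count of 6435, 6953 and 7743 in KCs and 1030, 903, 1259, 1628 and 1192 in the DETC libraries (5.80-fold, 2.54 ± 0.10). Lamb3 was 4.32-fold higher in KCs. Per kb, Lamb3 (1232 ± 72.8) stood above Lama3 (656 ± 47.9) in KCs. Other laminin chains were also higher in KCs: Lama5, the alpha chain of the other epidermal laminins, by 2.66 ± 0.11, with 3678 to 4784 in KCs and 476 to 916 in DETCs, and Lamb1, Lamb2 and Lama1 by 2.64, 2.52 and 2.73 on the log2 scale. Lamc1, the common gamma chain, differed least, with 1247 to 1742 in KCs and 1034 to 1306 in DETCs (0.33 ± 0.07, adjusted p = 5.95e-04).

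Col17a1, the transmembrane collagen of the hemidesmosome, was the most abundant member in KCs, at 12963 ± 474 normalized counts per kb. It stood at 75711, 75881 and 76505 normalized counts in the WT KC libraries, at 76888, 79527 and 83018 in those of LC-/- mice, and at 11210, 9809, 13446, 18611 and 13882 in the DETC libraries (5.75-fold, 2.52 ± 0.11). Col7a1, the anchoring fibril collagen, was 6.58-fold higher in KCs (2.72 ± 0.12), with 5144 to 6596 in KCs. The 6 type IV collagens, the network of the basement membrane, were all higher in KCs, by 1.88 to 2.62 on the log2 scale. Col4a5 and Col4a6, the pair of the skin basement membrane, had the largest type IV differences (2.61 ± 0.11 and 2.62 ± 0.07), and Col4a6 ran from 1676 to 1991 in KCs.

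Among the other collagens Col27a1 was far higher in DETCs. This gene, a fibrillar collagen best known from cartilage, had 9221, 7834, 7590, 11458 and 10020 in the DETC libraries and 2.78 to 8.41 in KCs, a difference of -10.53 ± 0.20. Col27a1 stood at 708 ± 123 normalized counts per kb, second to Col17a1 among the collagens in the DETC libraries. Col17a1 averaged 17.2% of its KC level there, and the keratinocyte marker medians were 15.0% to 24.3%. The part of keratinocyte RNA in the Col17a1 level was not tested. Col15a1 was the other collagen, of the 25 tested, that was higher in DETCs, with 74.2 to 113 there and 9 reads in all KC libraries (ratio 64.9, interval 33.9 to 143). Of the 6 fibrillar collagens tested, 3 were higher in KCs (Col5a2, Col1a2 and, just past the threshold, Col1a1, adjusted p = 0.0495), and Col5a1 and Col11a2 missed the threshold with limma. The call depended on the tool: Col1a1 passed with edgeR (adjusted p = 0.0308) but not with DESeq2 (0.0510). Col5a1 passed with both edgeR (0.0309) and DESeq2 (0.0376). Col6a1, Col6a2, Col8a1, Col8a2, Col14a1, Col16a1, Col18a1, Col20a1 and Col23a1 were higher in KCs, and Col12a1 missed the threshold (0.17 ± 0.17, adjusted p = 0.343).

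Fibroblasts, the main source of Col1a1 and Col1a2 in skin, left few reads. Of 8 fibroblast markers 2 passed the filter, and the 8 summed to 235 to 343 in KCs and 41.7 to 119 in DETCs, nearly all of it Fbln1, which is also counted among the basement membrane components. Mfap5 and Twist2 were at 0 in every library, and Lum, Dpt and Lox were at 0 in every DETC library. Col1a1 had 16.4 to 42.7 in KCs and 11.7 to 23.2 in DETCs, so that its populations overlapped.

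**Figure D2:**
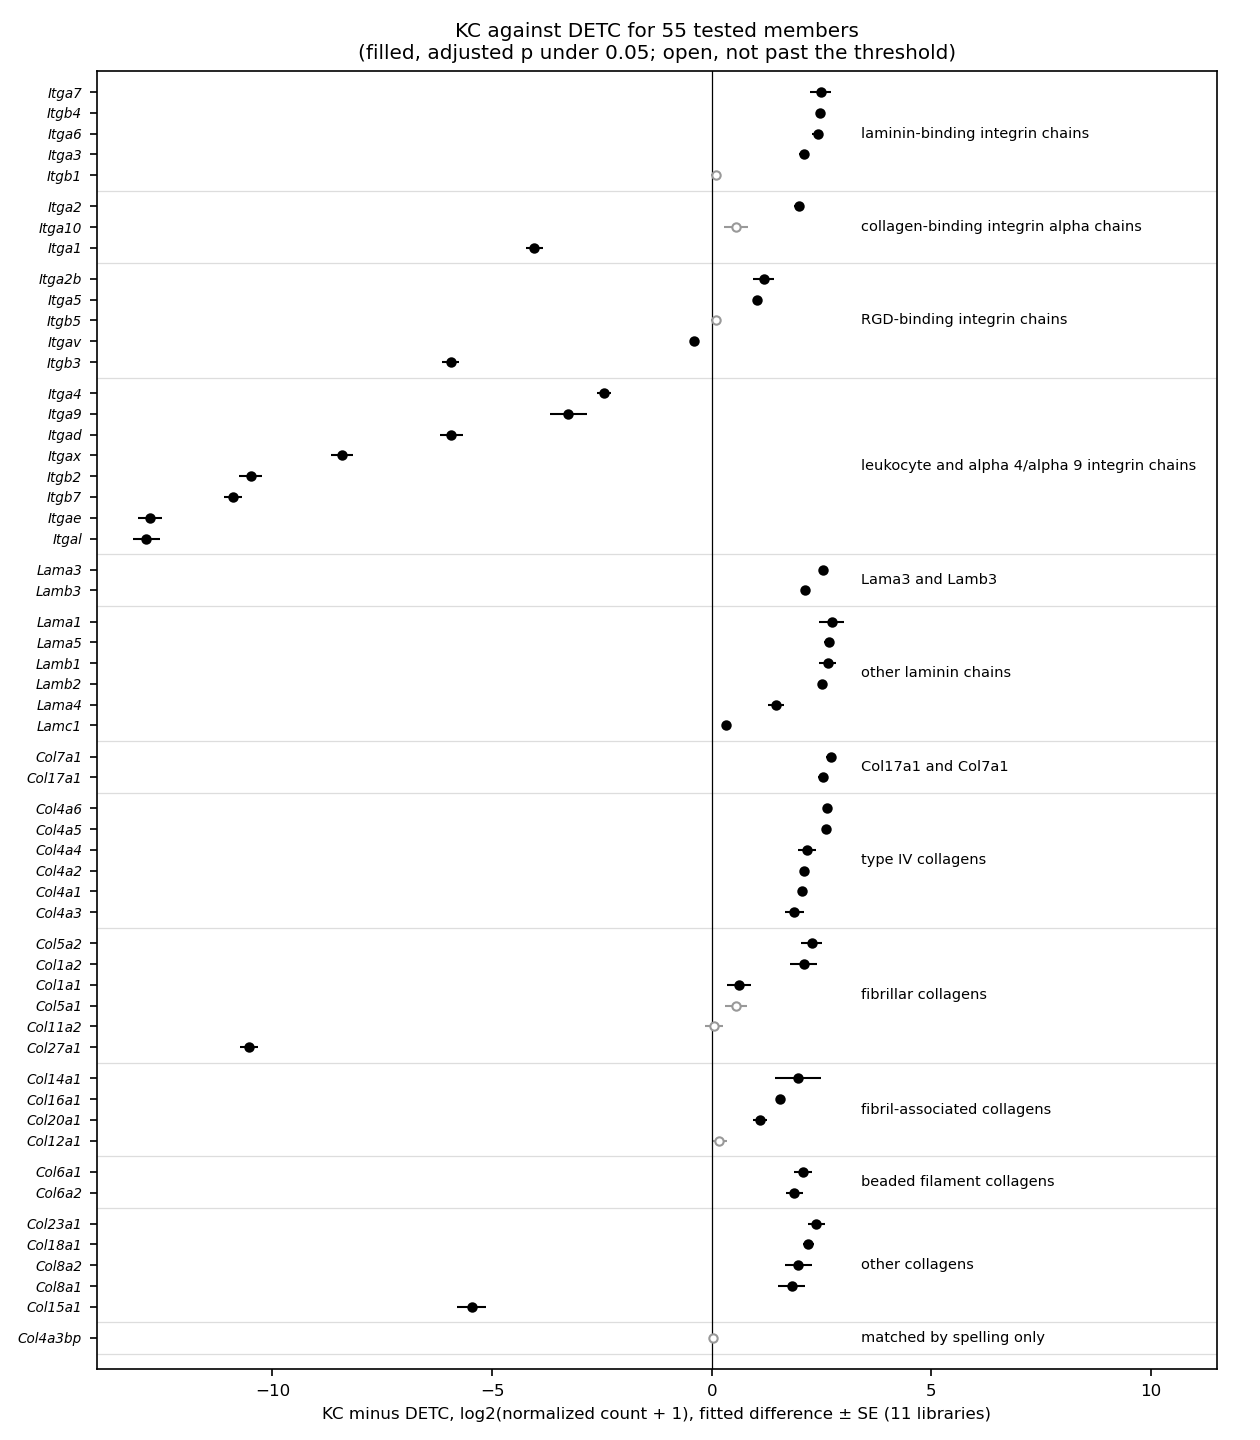
Points give the fitted KC minus DETC difference on the scale log2(normalized count + 1) for 55 of the 56 tested members, grouped by role, with bars of 1 SE from 11 libraries, filled where the adjusted p was under 0.05. Members higher in KCs lie between 0.33 and 2.73, whereas members higher in DETCs reach from -0.40 to -12.87.

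The members higher in KCs still had reads in the DETC libraries, as the keratinocyte markers did. Expressed as a percentage of the KC mean of the same genotype and averaged over the 5 DETC libraries, the 36 members higher in KCs ran from 14.9% (Lama1) to 81.3% (Lamc1), with a median of 22.9%. In 21 of the 36 this percentage was no higher than 24.3%, the highest library median of the keratinocyte markers. That median is of L2 alone, whereas the percentage is a mean over 5 libraries. Marker medians of the other DETC libraries ran from 15.0% to 17.7%. Col7a1 (15.3%), Lama5 (15.8%), Lama3 (17.1%), Col17a1 (17.2%), Itgb4 (18.1%) and Itga6 (19.0%) were among the 21. Of these named members, Itgb4 and Itga6 lay above 17.7%. The 15 others stood higher, with Itga5 (51.5%), Col1a1 (61.6%) and Lamc1 (81.3%) above 50%. The DETC library of L2 gave the highest percentage of the 5 libraries in 19 of the 36 members, and it also had the highest median of the keratinocyte markers. The part of keratinocyte RNA in the DETC level of these members was not tested, and in such bulk samples fewer cells of a type and less RNA per cell cannot be told apart.

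**Figure D3:**
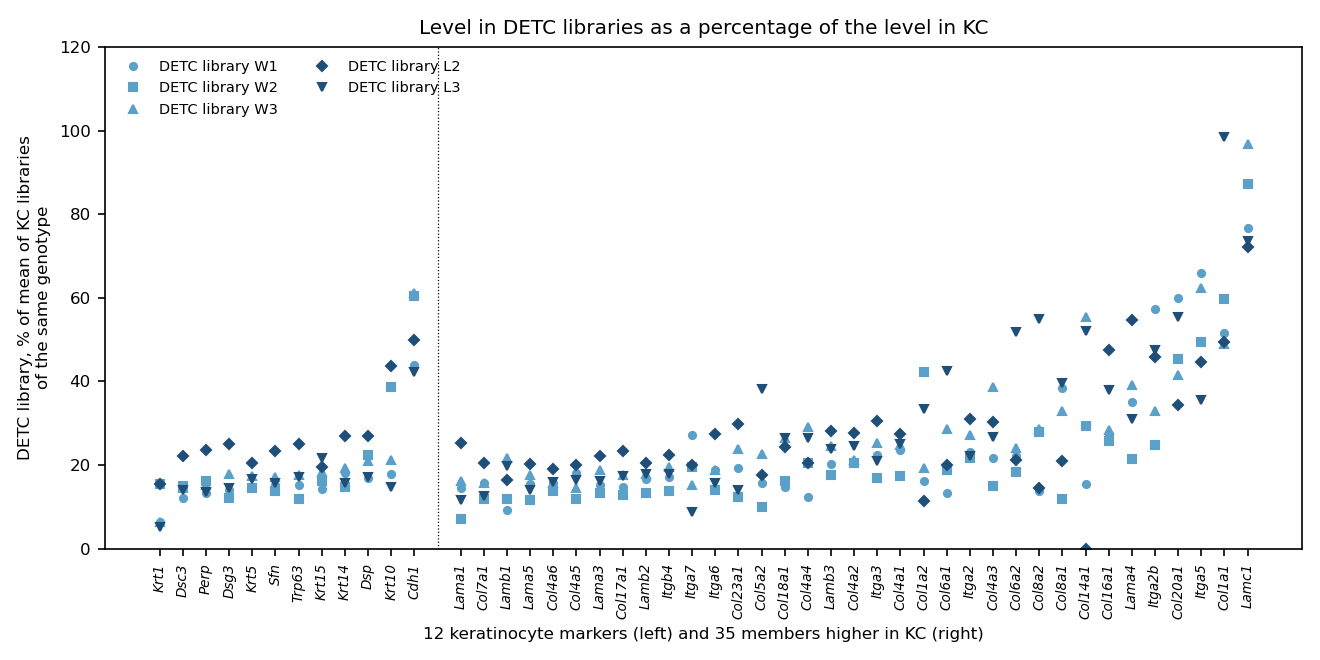
The level in each DETC library is plotted as a percentage of the mean of the KC libraries of the same genotype, for 12 keratinocyte markers on the left and 35 of the 36 members higher in KCs on the right, each ordered by its mean. Most members up to Itga3 and Col4a1 lie among the keratinocyte markers, and Itga5, Col1a1 and Lamc1 lie above 50% on average.

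In KCs 2 of the 56 members differed with genotype in either direction, against 7.23% of all genes (limma). Of the 56 members 2 were higher in LC-/- KCs, Itga5 among them, against 5.37% of all genes, and 0 were lower, against 1.85% of all genes (limma). At an unadjusted p under 0.05, 6 members (against 14.7% of all genes) were higher and 3 (against 11.7%) lower. On the reads behind the values, edgeR called 6 members higher and 1 lower, against 8.27% and 4.1% of all genes, and DESeq2 also called 6 and 1, against 8.43% and 3.72%. Values of the WT and LC-/- KC libraries did not overlap in 12 of the 56 members and in 31.5% of all genes. The median change of the members was -0.06 on the log2 scale and that of all genes -0.01.

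The laminin chains Lama3 and Lamb3 did not pass the threshold in KCs with limma. Lama3 went from a mean of 6732 to 7375 (0.13 ± 0.07, adjusted p = 0.285), and the levels of Lamb3 overlapped between the genotypes.

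Itga5, the fibronectin receptor chain, had 312, 384 and 344 in WT KCs and 481, 586 and 532 in LC-/- KCs. The groups did not overlap, and the gene rose by 0.62 ± 0.11 (adjusted p = 0.0396, with edgeR 0.00306 and with DESeq2 4.9e-05). With 1 library left out it passed in 0 of 6 fits, whichever library was removed (adjusted p from 0.0660 to 0.115), and it stood at 0.0507 with TMM size factors and at 0.0878 with no filter on low values.

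Of the members called by edgeR and DESeq2 but not by limma, 3 were integrin chains. Itga2 had 1602, 1542 and 2183 in WT KCs and 2917, 2542 and 3221 in LC-/- KCs, without overlap (0.72 ± 0.16, adjusted p = 0.0656 with limma and 0.00279 with edgeR). Itgb1, its partner, had the values given above, again without overlap but with LC-/- library L2 close to WT library W3 (0.50 ± 0.17, adjusted p = 0.134 and 0.0149). Itgav had 2414, 2421 and 2842 in WT KCs and 3662, 2804 and 3501 in LC-/- KCs, so that L2 lay below W3 (0.37 ± 0.13, adjusted p = 0.141 and 0.0294). Lamc1, the gamma chain of most other laminins, went from 1247, 1353 and 1450 to 1742, 1583 and 1689 (0.31 ± 0.07, adjusted p = 0.0618 and 0.0263). Col23a1, a transmembrane collagen, was the member called lower by these tools, from 2053, 1850 and 2090 to 1610, 1800 and 1384 (-0.33 ± 0.11, adjusted p = 0.136 and 0.0467).

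The chains of the hemidesmosome itself did not pass the threshold in KCs by any of the 3 tools. Itga6 changed by 0.10 ± 0.09 (adjusted p = 0.526), Itgb4 by 0.03 ± 0.05 (0.745), Col17a1 by 0.07 ± 0.12 (0.763) and Col7a1 by -0.17 ± 0.07 (0.218). Among the type IV collagens the smallest p was that of Col4a4, with 91.2, 108 and 91.6 in WT KCs and 77.1, 63.1 and 73.6 in LC-/- KCs (-0.44 ± 0.13, adjusted p = 0.110). Col6a1, a beaded filament collagen, and Col16a1, a fibril-associated collagen, had the smallest p of their groups (adjusted p = 0.158 and 0.194). Col27a1 and the leukocyte chains Itgae and Itgax were at a few reads per KC library and gave no usable change. The 12 keratinocyte markers, read beside these values, had 2 members higher (Cdh1 and Dsg3), 0 lower and a median change of 0.02, and the 7 LC markers had 1 higher (Epcam), 3 lower and a median of -1.11.

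In DETCs 1 of the 56 members was higher in LC-/- mice, Itga2, against 3.13% of all genes, and 2 were lower, Itga4 and Itgb3, against 0.43% of all genes (limma). At an unadjusted p under 0.05, 8 members (against 13.1% of all genes) were higher and 4 (against 6.19%) lower. With edgeR the counts were 1 and 2, against 2.84% and 0.506% of all genes, and with DESeq2 4 and 3, against 6.02% and 1.46%. The WT and LC-/- DETC libraries did not overlap in 14 of the 56 members and in 37.9% of all genes, with 3 libraries against 2. The median change was 0.10 over the members and 0.02 over all genes.

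Itga4, the alpha chain of VLA-4, had normalized counts of 316, 220 and 343 in WT DETCs and 126 and 142 in LC-/- DETCs. Both LC-/- libraries were below every WT library, and the gene fell by 1.10 on the log2 scale (SE 0.20, adjusted p = 0.0327 with limma, 0.0317 with edgeR and 1.27e-04 with DESeq2). Itgb3, the beta chain of the vitronectin receptor, had 350, 358 and 373 in WT DETCs and 245 and 186 in LC-/- DETCs, without overlap (-0.76 ± 0.15, adjusted p = 0.0357, with edgeR 0.0322 and with DESeq2 7.70e-04). With 1 library left out both kept their direction. Itga4 then passed the threshold in 2 of 5 fits (adjusted p from 0.0419 to 0.129), failing without W1, W3 or L2, and Itgb3 in 0 of 5, whichever library was removed (0.0635 to 0.123). Both missed it with no filter on low values (0.226 and 0.185) and with no mean-variance trend (0.180 for each), and in one fit over all 11 libraries Itgb3 missed it (0.147) while Itga4 passed (0.0220).

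These decreases stood beside lower LC markers and a smaller sum of DETC markers. The 7 LC markers had a median change of -2.54 in DETCs, with 4 lower (Cd74, H2-Aa, H2-Ab1 and H2-Eb1) and 1 higher (Epcam). The 10 DETC markers summed to 157708 to 172046 in WT DETCs and to 137634 and 139615 in LC-/- DETCs, their median change was -0.17, and Trdv4, a gene segment of the DETC antigen receptor, was the one called lower (-1.04 ± 0.18, adjusted p = 0.0279). The markers did not all move alike. Trdc went from 39123, 30304 and 38560 in WT to 26887 and 23250 in LC-/- DETCs. Klrk1 went the other way, from 7449, 7507 and 6823 to 8241 and 9057. Ptprc overlapped, with 31182, 31145 and 30814 in WT and 28113 and 32157 in LC-/- DETCs. The part of these shifts in the change of Itga4 and Itgb3 was not tested. The abundant leukocyte chains of DETCs did not pass the threshold. Itgae changed by 0.03 ± 0.14 (adjusted p = 0.932), Itgal by 0.01 ± 0.13 (0.985), Itgb7 by -0.05 ± 0.11 (0.844) and Itgb2 by -0.40 ± 0.19 (0.294). Itgax, present at a lower level, had 515, 424 and 475 in WT DETCs and 487 and 385 in LC-/- DETCs (-0.12 ± 0.14, adjusted p = 0.708). Itgav, the partner of Itgb3, went the other way, from 3297, 3015 and 3632 to 4838 and 4079 (0.43 ± 0.11), which DESeq2 called (adjusted p = 0.0246) and limma did not (0.0879).

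Itga2 had 410, 385 and 480 in WT DETCs and 894 and 640 in LC-/- DETCs, without overlap, and rose by 0.84 ± 0.16 (adjusted p = 0.0365, with edgeR 0.0354 and with DESeq2 3.92e-04). The gene was higher in KCs than in DETCs, and in library L2 it stood at 30.9% of its LC-/- KC mean, the highest of the DETC libraries, as the median keratinocyte marker did (24.3%). Without L2, Itga2 changed by 0.59 (adjusted p = 0.166). Without W1, W2 or W3, Itga2 also missed the threshold (adjusted p up to 0.120), as it did with no filter (0.248) and with no trend (0.191).

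The keratinocyte markers had a median change of 0.29 in DETCs, with 0 of 12 called in either direction, and the 36 members higher in KCs had a median change of 0.23, against -0.05 for the 13 members higher in DETCs. The part of keratinocyte RNA in the rise of Itga2 was not tested. Hemidesmosome and laminin chains did not pass the threshold in DETCs with limma, with Col17a1 at 0.50 ± 0.17 (adjusted p = 0.163), Lama3 at 0.40 ± 0.17 (0.254), Itga6 at 0.38 ± 0.23 (0.433) and Itgb4 at 0.29 ± 0.16 (0.371). The fibril-associated collagens Col16a1 and Col12a1 were called by DESeq2 but not by limma or edgeR, and both passed in one limma fit over all 11 libraries (adjusted p = 0.0272 and 0.0413). Col16a1 went from 697, 659 and 725 to 1057 and 847 (0.45 ± 0.12, DESeq2 adjusted p = 0.0353), and Col12a1 from 1244, 627 and 1007 to 543 and 420 (-0.95 ± 0.26, DESeq2 adjusted p = 0.00261). Col27a1, the DETC collagen, had 9221, 7834 and 7590 in WT and 11458 and 10020 in LC-/- DETCs, a change of 0.39 ± 0.12 that missed the threshold (adjusted p = 0.125).

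**Figure D4:**
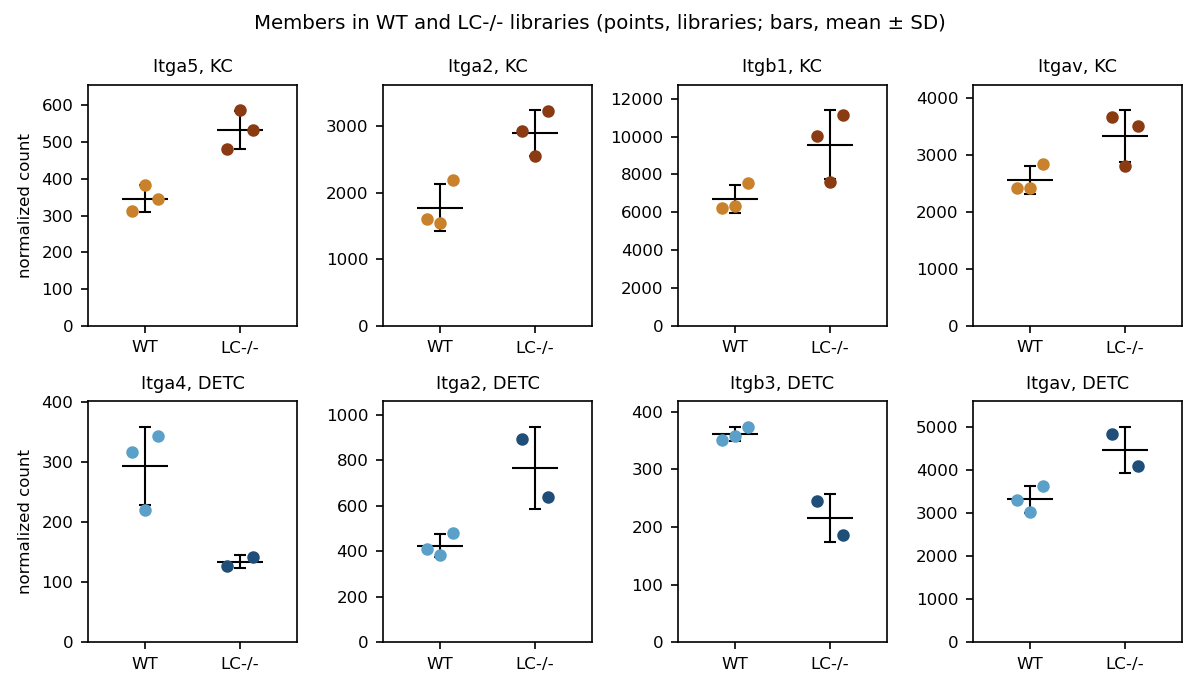
Normalized counts are plotted on linear axes from 0, with 1 point per library and bars for the mean ± SD, for 4 members in KCs (top, 3 WT and 3 LC-/- libraries) and 4 in DETCs (bottom, 3 WT and 2 LC-/-). In KCs the LC-/- points of Itga5, Itga2 and Itgb1 lie above all WT points while Itgav overlaps, and in DETCs Itga4 and Itgb3 lie below the WT points and Itga2 and Itgav above them.

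Whether the change with genotype differed between the populations was tested directly as the DETC change minus the KC change. None of the 56 members passed the threshold with limma (0, against 0.798% of all genes), while 6 had an unadjusted p under 0.05, against 11.3% of all genes. At that unadjusted level edgeR had 5 members, against 10.7% of all genes, and DESeq2 7, against 9.8%. DESeq2 gave no adjusted p for some members, such as Itga4. After adjustment edgeR called 0 members and DESeq2 1, and the shares of all genes called by these tools are not given here. That member was Col16a1, with a change of -0.19 in KCs and 0.45 in DETCs (difference 0.64 ± 0.14, adjusted p = 0.0670 with limma and 0.00393 with DESeq2). Itga5, past the threshold in KCs alone, had a difference of -0.56 ± 0.21 (adjusted p = 0.323), and Itga4, past it in DETCs alone, one of -0.85 ± 0.34 (0.360). Itga2 had a difference of 0.12 ± 0.23 (0.904). For Itga6, Itgae, Lama3 and Col17a1 the adjusted p of the difference was 0.775, 0.804, 0.682 and 0.504.

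Genes that work with these families were counted as lists. Of all genes tested, 37.9% were higher in KCs and 43.6% in DETCs. Between genotypes, 5.37% of all genes were higher and 1.85% lower in LC-/- KCs, and 3.13% and 0.43% in LC-/- DETCs. All 6 hemidesmosome and anchoring partners were higher in KCs, among them Dst and Plec, the plakins that tie Itgb4 and Col17a1 to keratin, and Krt5 and Krt14, and 0 of 6 passed the test between genotypes in either population. Of 16 other basement membrane components tested, 14 were higher in KCs, such as Agrn (agrin) and Dag1 (dystroglycan), and 2 in DETCs, Nid2 (nidogen-2), at 0 in KC library W1 and 818 in DETC library W1, and Fbln2. Fbln2 was also the 1 list member that changed with genotype, lower in LC-/- DETCs (-0.88 ± 0.17, adjusted p = 0.0333).

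Of 37 adaptors and kinases of integrin adhesions, 16 were higher in KCs and 18 in DETCs, shares near the 37.9% and 43.6% of all genes. Fermt2 (kindlin-2), an activator of integrins, was at 12403 to 22164 in DETCs and 59.4 to 87.2 in KCs, and Ptk2b (PYK2) was higher in DETCs as well (-4.53 ± 0.05), while Actn4 and Tns4 were higher in KCs. In LC-/- KCs 7 of the 37 were higher and 0 lower, read against the 5.37% of all genes above: Actn4, Vcl, Tln1 and Zyx were the most abundant, and Zyx (zyxin) rose by 0.83 ± 0.05 (adjusted p = 0.0142). In LC-/- DETCs 4 were higher and 0 lower, against 3.13% and 0.43% of all genes: Fermt2, Ptk2b, Pxn and Vcl, of which Vcl (vinculin) rose by 0.52 ± 0.09 in KCs and 0.65 ± 0.11 in DETCs.

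The next counts stand against the same 37.9% of all genes higher in KCs and 43.6% higher in DETCs. Of 16 ligands and counter-receptors tested, 10 were higher in KCs and 5 in DETCs. Cdh1, whose product is the ligand of the Itgae and Itgb7 pair, had 23813, 23264 and 27585 in WT KCs and 38728, 38476 and 39469 in LC-/- KCs, and rose by 0.65 ± 0.09 (adjusted p = 0.0268). F11r (JAM-A), a ligand of LFA-1, rose by 0.25 ± 0.05 (adjusted p = 0.0411). Icam2 also passed the test, but at 0 in WT KCs and at most 2.20 in a LC-/- KC library it had too few reads for a statement on change. In LC-/- DETCs, where neither Itgae nor Itgb7 passed the threshold, Adam9, a disintegrin protease, was the 1 ligand that was higher (1.06 ± 0.12, adjusted p = 0.00991). Of 23 collagen folding and processing genes tested, 12 were higher in KCs and 8 in DETCs. Plod1, a lysyl hydroxylase, was lower in LC-/- KCs (-0.56 ± 0.08, adjusted p = 0.0280), Sec24d, a coat protein of collagen export, was higher (0.54 ± 0.07, 0.0228), and Mia3, an export receptor of collagen, was higher in LC-/- DETCs (0.50 ± 0.09, 0.0340). Of 14 matrix metalloproteinases and inhibitors tested, 10 were higher in KCs and 3 in DETCs, and Mmp2 was lower in LC-/- KCs (-0.78 ± 0.13, 0.0376) and Mmp25 in LC-/- DETCs (-1.07 ± 0.22, 0.0417).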

How the data were processed

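RNA-seq reads of 11 libraries of sorted KCs and DETCs were made from poly-A RNA and sequenced as pairs of 75 bases on a NextSeq 500. The authors trimmed them with cutadapt, aligned them to GRCm38 with hisat2, counted them per gene with featureCounts and normalized them with DESeq2, per the labels and the submitters' processing notes, in versions not given in the sources used here. The deposited table holds a normalized signal, gene counts divided by a size factor per library. Dividing by each library's smallest step returned whole reads for 100.0% of values within 0.01, with 13491075 to 19750440 reads per library, and 0 columns of samples were left unused. Replicate libraries of a group differed by more than sampling noise (chi-square per degree of freedom 8.28 to 24.1). The study describes the libraries of a group as coming from separate animals. In the genotype comparisons within a population, p-values therefore measure the spread between these animals. In the main fits over all 11 libraries, KC and DETC libraries of one number entered as independent.

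Genes with CPM over 1 in at least 2 libraries (14419 of 27524 with any read) were tested on log2(normalized count + 1) with limma (version 3.58.1, eBayes with a trend, R 4.3.3) and Benjamini-Hochberg adjustment over all genes tested, with a threshold of 0.05. The pseudocount of 1 understates fold changes of low genes. KC was compared with DETC and the difference of genotype changes tested over all 11 libraries, and LC-/- with WT within each population. As alternatives edgeR (4.0.16, quasi-likelihood test) and DESeq2 (1.42.0) were run on the recovered reads, with other pseudocounts, filters and size factors, and with each library left out. Exon lengths and positions came from GENCODE release M21 (GRCm38), which matched 52403 of 52550 gene IDs, and promoters from RefSeq (GRCm38.p6).

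The members and the lists of partner genes were chosen with earlier results of these data known. Named with values were Itga6, Itgae, Lama3 and Col17a1; the 12 called members with the largest population difference in each direction and a mean of at least 100; every integrin chain with such a mean; in each genotype comparison every member called by 1 of the 3 tools and otherwise the member with the smallest p of its role; and up to 4 called genes of each partner list with the largest mean. Of the members, 1 is included in the counts but not reported here. Intervals of read ratios are exact binomial intervals at 95% and cover counting error only. Reads of overlapping genes cannot be told apart where strand was not used in counting.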

Additional observations from a re-analysis of the deposited data

How the results depend on the processing

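The counts of members higher in KCs (36) and in DETCs (13) stayed within 34 to 44 and 13 to 16 over all alternatives, the upper values coming from the fit with no filter, which tested 79 members. With 1 library left out they ran from 35 to 37 and stayed at 13. Genotype counts were less firm. Members higher in LC-/- KCs, 2 in the main test, were 6 with edgeR, 6 with DESeq2, 4 in one fit over all 11 libraries, 1 with TMM size factors, 0 with no filter and 0 to 2 with 1 library left out, where the count fell to 0 without W1, W2, L1 or L3 and to 1 without W3. Members lower in LC-/- KCs, 0 in the main test, were 1 with edgeR, with DESeq2 and with no filter. Members higher in LC-/- DETCs, 1 in the main test, were 4 with DESeq2, 3 in one fit over all libraries, 0 with no mean-variance trend and 0 to 3 with 1 library left out, with 0 without W1, W2, W3 or L2 and 3 without L3. Members lower in LC-/- DETCs, 2 in the main test, were 0 with no filter, 0 with no trend and 0 to 2 with 1 library left out, with 0 without W1, W3 or L2. Members whose genotype change differed between populations, 0 in the main test, were 1 with DESeq2 and 0 to 1 with 1 library left out, with 1 without DETC library L3. Shares of all genes called are given above for the main fits and, for genotype within a population, for edgeR and DESeq2. For the other settings they are not given, so a shift of the members cannot be told apart from a shift of all genes. The cause of these shifts was not tested, except that a left-out library makes a smaller test.

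The numbers that KC and DETC libraries share in the labels were checked for pairing by the correlation of their deviations from the group means over 14419 genes, which was -0.05 for W1, 0.07 for W2, 0.12 for W3, 0.14 for L2 and 0.12 for L3. Although 4 of 5 libraries correlated best with their own number, not every pair passed 0.1, and the main fits did not pair samples by number. If libraries of one number came from the same mouse, the main fits over all 11 libraries treated them as independent. With the number as a replicate block, 35 members were higher in KCs and 13 in DETCs, and 0 differed in genotype change.

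For the named members, 1137 of 1193 alternative values kept their side of the threshold, 32 lost it and 24 gained it, and 0 called values turned direction. With 2 or 3 libraries a group, the genotype tests have little depth of replication, and members at a few reads per library (the leukocyte chains in KCs) allow no statement on change.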
